A study of Mus musculus with 34 samples.

Results

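The genes described here are those that set the dorsal and ventral sides of the limb bud, together with the LIM homeodomain factors of its mesenchyme and their cofactors. They were chosen by name as *Lmx1b*, *Wnt7a*, *En1*, *Lhx2*, *Lhx9*, *Ldb1* and *Ldb2*, 7 of the 22040 genes with a value in the mRNA-seq table, and all 7 were found and tested. RNA-seq had been performed on E11.5 limb buds of 3 WT and 3 CKO mouse embryos or embryo pools, given as biological replicates. CKO embryos were *Prrx1-Cre;Hnrnpk* fl/fl, in which Cre removes exons 4 to 7 of *Hnrnpk*, and the control genotype was given as Hnrnpk WT, without a statement on whether the controls carried floxed alleles or Cre. *Prrx1-Cre* acts in limb bud mesenchyme and not in the apical ectodermal ridge, so that the CKO libraries also contained cells in which no recombination was expected, and embryos of both sexes were used. *Hnrnpk* encodes an RNA- and DNA-binding protein with a preference for C-rich sequence.

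In the limb bud, the dorsal ectoderm secretes WNT7A, which maintains the LIM homeodomain factor LMX1B in the dorsal mesenchyme beneath it. The ventral ectoderm expresses the homeodomain factor EN1, which keeps *Wnt7a* off on the ventral side. LHX2 and LHX9, related LIM homeodomain factors of the distal mesenchyme, act with LMX1B in outgrowth and patterning, and all 3 bind through their LIM domains to the adaptor proteins LDB1 and LDB2, which join them into larger complexes.

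The sequence shown first is the promoter of *Lmx1b*, because the study designed a dCas9 guide against it. The 250 bases before the RefSeq start site, chr2:33641099-33641348 (GRCm38, minus strand), are printed with the guide target and its PAM in capitals.

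*Lmx1b* promoter: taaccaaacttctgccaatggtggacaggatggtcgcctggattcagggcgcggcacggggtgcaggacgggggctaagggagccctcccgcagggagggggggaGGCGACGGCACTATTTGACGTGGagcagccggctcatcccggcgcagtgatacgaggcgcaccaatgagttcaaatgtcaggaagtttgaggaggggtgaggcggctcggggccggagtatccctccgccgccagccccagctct

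The 20 bases of the guide lay at chr2:33641224-33641243, centred 136 bases before the RefSeq start and outside the GENCODE M21 gene model of *Lmx1b*, whose 5′ end was 587 bases further downstream. Just before the guide, the sequence held a C-rich run on each strand. The motif CCCTCCC, the core of the CT element that the hnRNPK protein is known to bind, was therefore counted on both strands of the 300-base RefSeq windows, which run from 250 bases before to 50 bases after a start site. It was found in 22.0% of all 32851 windows and in 6 of the 9 windows of these genes, which belong to 5 of the 6 genes with a window. Because the *Lmx1b* window prompted the count, its own match was known beforehand. The 22.0% is a share of windows, and no share over genes was taken. *Ldb2* had no window. The first match in each window is shown in capitals with its neighbouring bases, to let the genes be compared.

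*Lmx1b*: gctaagggagCCCTCCCgcagggaggg
*Wnt7a*: agggcggagaGGGAGGGgcgggggcgg
*Lhx2*, upstream start: tggagacgcaGGGAGGGatccggggag
*Lhx9*: cgcgcatgtgGGGAGGGggtaaagacc
*Ldb1*, most upstream start: cacggctctcCCCTCCCactaccagga
*Ldb1*, next start: cctcctcgctCCCTCCCtccgcccgct

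The windows of *En1*, of the downstream start of *Lhx2* and of the third start of *Ldb1* did not contain these letters. A match describes the letters in the window, and binding was not analysed here.

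The libraries held 17140869 to 24624434 reads on listed genes. Globin genes took 11.7% to 32.4% of the summed FPKM (reads scaled to exon length and library size, a level that can be compared between genes), with the lowest share in CKO replicate 1 and the highest in CKO replicate 2. Both libraries numbered 1 stood apart from the rest of their group. For instance, *Kera*, which encodes the tendon and cornea proteoglycan keratocan, had 0.243 and 0.170 FPKM in WT and CKO replicate 1 and 2.48 to 4.61 FPKM in the other 4 libraries. The targeted gene was lower in every CKO library. *Hnrnpk* (ENSMUSG00000021546) reached 193, 195 and 185 FPKM in the WT libraries and 127, 142 and 135 FPKM in the CKO libraries, so that CKO kept 70.6% of the WT mean. This gene shares 330 exon bases with *Rmi1* on the opposite strand. The forelimb gene *Tbx5* and the hindlimb genes *Tbx4* and *Pitx1* were expressed in all 6 libraries, so both limb types were present, and the mesenchyme markers *Prrx1* and *Twist1* were high throughout.

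Among these genes, *Ldb1* was expressed most, followed by *Lmx1b*, *Lhx9*, *Lhx2* and *Ldb2*, whereas *Wnt7a* and *En1* were near 1 FPKM. In WT the order was 77.2 ± 7.28 FPKM for *Ldb1*, 27.9 ± 5.68 for *Lmx1b*, 21.4 ± 3.13 for *Lhx9*, 16.7 ± 3.67 for *Lhx2*, 11.1 ± 0.851 for *Ldb2*, 0.986 ± 0.160 for *Wnt7a* and 0.904 ± 0.0507 for *En1* (mean ± SD, n = 3). The ranges of *Lmx1b* and *Lhx9*, of *Lhx9* and *Lhx2*, and of *Wnt7a* and *En1* overlapped, so these neighbours were not separated by their spread over libraries. Within each WT library, however, *Lmx1b* was above *Lhx9* (1.205 to 1.395 times) and *Lhx2* below it (0.709 to 0.848 times). Both ectodermal genes rested on few reads, 49 to 87 per library for *Wnt7a* and 40 to 68 for *En1*, while the other 5 rested on 468 to 8379.

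**Figure D1:**
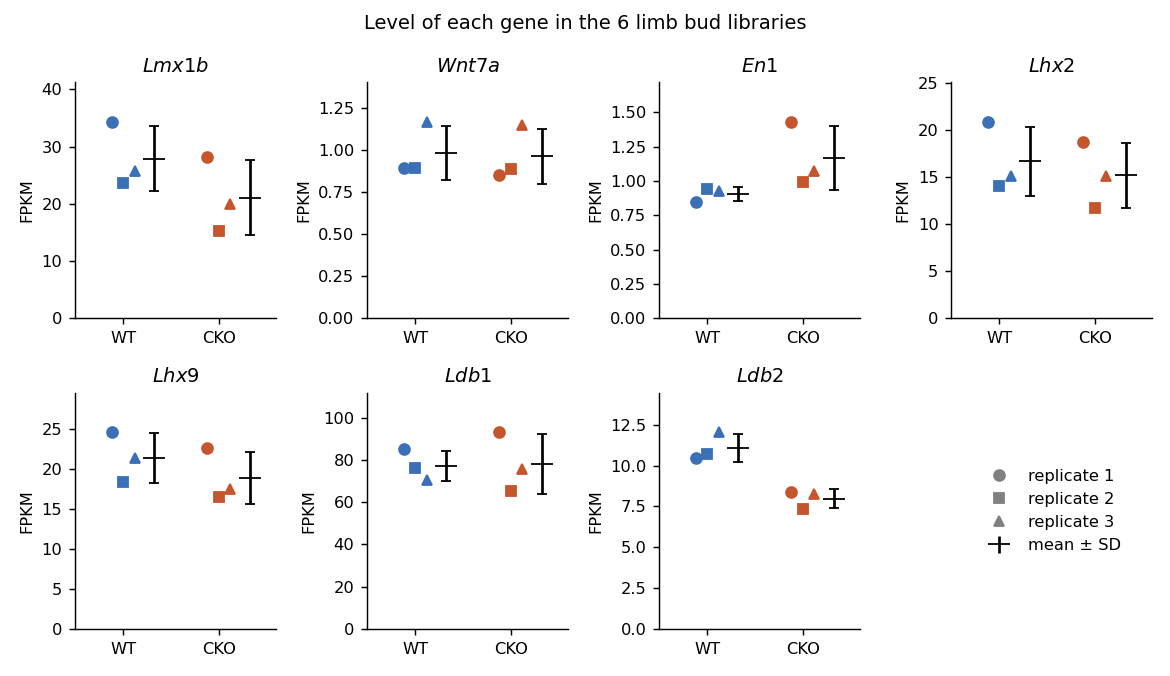
Level in FPKM (vertical axes, each starting at 0) of the 7 genes in 3 WT (blue) and 3 CKO (orange) libraries, with the symbol giving the replicate number and the bar the mean ± SD (n = 3). The groups separate completely for *Ldb2*, where 10.4 to 12.04 FPKM in WT stand against 7.33 to 8.36 in CKO, and for *En1*, and overlap for the other 5 genes.

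*Lmx1b* (ENSMUSG00000038765, chr2:33560965-33640511, minus strand, GRCm38), the dorsal mesenchymal factor, stood at 34.3, 23.6 and 25.7 FPKM in the 3 WT libraries, in the order of their replicate numbers, and at 28.1, 15.2 and 19.9 FPKM in those of CKO. The groups overlapped, because CKO replicate 1 lay above WT replicates 2 and 3, but each CKO library lay below the WT library of the same number. The CKO mean of 21.1 ± 6.56 FPKM was 75.5% of the WT mean. The log2 difference was -0.43 (SE 0.24, 95% interval -0.99 to 0.13), with an adjusted *p* value of 0.705 in limma. The differences between libraries of the same number were -0.29, -0.64 and -0.37 on the log2 scale. Over all genes, only the libraries numbered 1 stood out as a pair by their deviations from the group means. With the replicate number as a block, the interval narrowed to -0.67 to -0.19 and the adjusted *p* value was 0.0544, still above the threshold of 0.05. With replicates 2 and 3 alone the difference was -0.50 and the adjusted *p* value 0.00908, and with limma voom and the block on reads recovered from the FPKM it was -0.43 with 0.0233. The difference in *Lmx1b* thus did not pass the threshold in the fits of all 6 libraries without the block or in the blocked fit on FPKM, and passed it in replicates 2 and 3 alone and in voom with the block.

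*Wnt7a* (ENSMUSG00000030093, chr6:91363981-91411363, minus strand), the dorsal ectodermal signal, had 0.892, 0.896 and 1.17 FPKM in WT and 0.853, 0.889 and 1.15 FPKM in CKO. The values of each number were nearly the same in both groups. The log2 difference was -0.03 (SE 0.20, 95% interval -0.50 to 0.44, adjusted *p* = 0.980 in limma), and quantile normalization turned its sign. The interval spans differences in either direction, so these libraries did not exclude a difference within it.

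*En1* (ENSMUSG00000058665, chr1:120602418-120607992, plus strand), the ventral ectodermal factor, had 0.846, 0.939 and 0.926 FPKM in WT and 1.43, 0.995 and 1.07 FPKM in CKO. All 3 CKO libraries lay above all 3 WT libraries, CKO replicate 1 by most and CKO replicate 2 by the least. The means were 0.904 ± 0.0507 and 1.17 ± 0.233 FPKM, and the log2 difference was 0.32 (SE 0.19, 95% interval -0.13 to 0.77) with an adjusted *p* value of 0.723. The exact permutation test gave *p* = 0.1, the smallest value that 3 against 3 libraries allow. Without CKO replicate 1, the library with 68 reads on *En1*, the log2 difference was 0.18.

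*Lhx2* (ENSMUSG00000000247, chr2:38339281-38369733, plus strand), a LIM homeodomain factor of the distal mesenchyme, had 20.9, 14.0 and 15.1 FPKM in WT and 18.7, 11.7 and 15.1 FPKM in CKO. The groups overlapped over most of their range. The log2 difference was -0.14 (SE 0.21, 95% interval -0.63 to 0.35, adjusted *p* = 0.904 in limma). *Lhx9* (ENSMUSG00000019230, chr1:138825186-138848577, minus strand), its paralogue, had 24.6, 18.4 and 21.4 FPKM in WT and 22.6, 16.6 and 17.5 FPKM in CKO. Every CKO library was below the WT library of its number, yet CKO replicate 1 exceeded 2 of the WT libraries. The log2 difference was -0.19 (SE 0.17, 95% interval -0.57 to 0.20, adjusted *p* = 0.837 in limma).

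*Ldb1* (ENSMUSG00000025223, chr19:46031570-46045214, minus strand), the widely expressed adaptor of LIM homeodomain factors, had 85.0, 76.0 and 70.6 FPKM in WT and 93.1, 65.1 and 75.8 FPKM in CKO. CKO replicates 1 and 2 were the highest and the lowest of all 6 libraries. The log2 difference was 0.0040 (SE 0.16, 95% interval -0.37 to 0.38, adjusted *p* = 0.997 in limma), and its sign turned under quantile normalization and under scaling without globin genes (each library rescaled to its total over all other genes). *Ldb1* shares 177 exon bases (3.84%) with *Pprc1* on the opposite strand, and no other of these genes shares exon bases.

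*Ldb2* (ENSMUSG00000039706, chr5:44472132-44799680, minus strand), the second adaptor, had 10.4, 10.7 and 12.04 FPKM in WT and 8.36, 7.33 and 8.27 FPKM in CKO. Every CKO library was below every WT library. The means were 11.1 ± 0.851 and 7.99 ± 0.574 FPKM, so that CKO had 72.1% of WT, and the log2 difference was -0.47 (SE 0.12, 95% interval -0.74 to -0.19). Its limma *p* value was 0.00478, the 172nd smallest of 12305 genes, and the adjusted *p* value 0.341. Blocking on the replicate number gave an adjusted *p* value of 0.0397 and an interval of -0.70 to -0.23. With replicates 2 and 3 alone the difference was -0.54 with an adjusted *p* value of 0.00389. limma voom with the block gave an adjusted *p* value of 0.0217. *Ldb2* thus passed the test across all genes in the 3 fits that blocked on the replicate number or left out the libraries numbered 1, and in none of the others that were run.

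**Figure D2:**
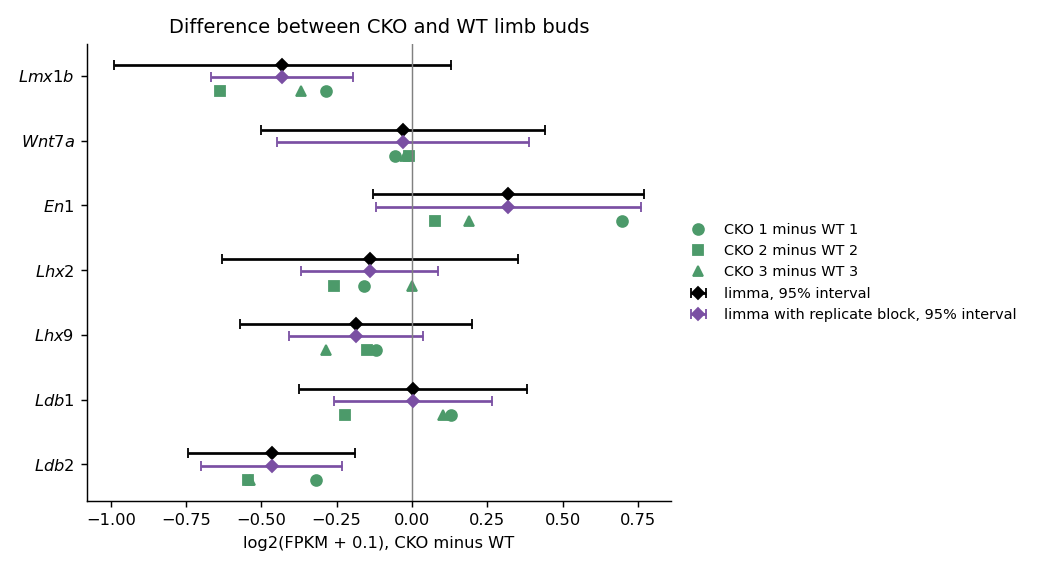
Difference between CKO and WT in log2(FPKM + 0.1) (horizontal axis) for each gene, from limma without (black) and with (purple) the replicate block, with 95% intervals, and between libraries of the same number (green symbols). Both intervals exclude 0 for *Ldb2*, and the blocked interval alone excludes it for *Lmx1b* (-0.67 to -0.19).

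Set against all genes, the count of called genes was small. In limma without the block 0 of the 7 genes had an adjusted *p* value under 0.05, as did 0.065% of all genes tested (8 of 12305), and limma voom on recovered reads without the block also called 0. At an unadjusted *p* value under 0.05 there was 1, *Ldb2*, against 8.31% of all genes. The study selected genes that changed more than 2-fold in either direction at an unadjusted *p* value under 0.05. With the *p* values of limma without the block, 0 of the 7 genes met these thresholds, against 0.666% of all genes (52 higher and 30 lower, or 45 and 45 after scaling without globin genes). These are not the counts of the study, which named no test for this selection. With the block 1 of the 7, *Ldb2*, had an adjusted *p* value under 0.05 in limma, against 2.81% of all genes. With voom and the block *Lmx1b* and *Ldb2* did, beside 227 higher and 424 lower of 12294 genes tested. In replicates 2 and 3 alone the same 2 did, beside 867 higher and 984 lower of 12305. The groups did not overlap for 2 of the 7, *En1* and *Ldb2*, against 14.5% of all genes, which is a share the small number of genes does not set apart. The median log2 difference of the 7 was -0.14, with 5 lower and 2 higher, beside 0.0048 over all genes tested.

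*Lmx1b*, *Lhx2*, *Lhx9* and *Ldb1* shared a second pattern, a higher level in the libraries numbered 1. *Lmx1b* in replicate 1 was 1.39 times the mean of replicates 2 and 3 in WT and 1.61 times in CKO, *Lhx2* was 1.43 and 1.39 times, *Lhx9* 1.24 and 1.33 times, and *Ldb1* 1.16 and 1.32 times. For *Ldb2* these values were 0.917 and 1.07, and for *Wnt7a* 0.863 and 0.837. Over the 6 libraries, Pearson's r of the log2 levels was 0.95 between *Lmx1b* and *Lhx9*, 0.92 between *Lmx1b* and *Lhx2* and 0.91 between *Lhx2* and *Lhx9*, values that share the offset of the replicate 1 libraries and are given as a description. Genes most like each gene among 7431 with a mean of at least 5 FPKM were *Chtf18* and *Zfp36l2* for *Lmx1b*, *Vasn* and *Nckap5l* for *Lhx2*, *Efnb2* and *Etnk1* for *Lhx9*, and *Tkfc* and *Plpp3* for *Ldb2*, each with r of 0.99, and *Repin1* (0.995) for *Ldb1*. For *Wnt7a* *Tm9sf2* (0.96) was named, and for *En1* *Anks3* and *Arhgef39* (both 0.98). An r above 0.95 was common, with 188 genes for *Lmx1b*, 140 for *Lhx2*, 135 for *Lhx9* and 147 for *Ldb1*, against 36 for *Ldb2*, 4 for *En1* and 2 for *Wnt7a*.

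Because replicate 1 raised several of these genes together, their ratios within a library were also taken, a choice made after the values were seen. The ratio of *Lmx1b* to *Lhx2* was 1.65, 1.68 and 1.70 in WT and 1.51, 1.29 and 1.31 in CKO. The WT libraries lay within a narrow range and every CKO library lay below it, with means of 1.68 ± 0.0278 and 1.37 ± 0.118 and a log2 difference of -0.29. The ratio of *Ldb2* to *Ldb1* was 0.123, 0.141 and 0.171 in WT and 0.0898, 0.113 and 0.109 in CKO, again without overlap, with a log2 difference of -0.47. *Ldb2* alone already did not overlap and *Ldb1* differed by 0.0040, so this ratio largely restates the difference in *Ldb2*. Both ratios gave *p* = 0.1 in the exact permutation test, the smallest possible. The ratio of *Lhx2* to *Lhx9* was 0.774 ± 0.0702 in WT and 0.799 ± 0.0816 in CKO (exact *p* = 0.8), and that of *Lmx1b* to *Lhx9* differed by -0.25 on the log2 scale with overlapping groups (exact *p* = 0.2). Within each number, the ratio of *Lmx1b* to *Lhx9* was lower in CKO, 1.40 and 1.24, 1.29 and 0.916, and 1.205 and 1.14 in WT and CKO. The ratio of *Lmx1b* to *Lhx2* thus did not overlap between groups, whereas the FPKM of *Lmx1b* and its ratio to *Lhx9* did. Single genes without overlap made up 14.5% of those tested, and the share among other gene pairs was not counted.

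**Figure D3:**
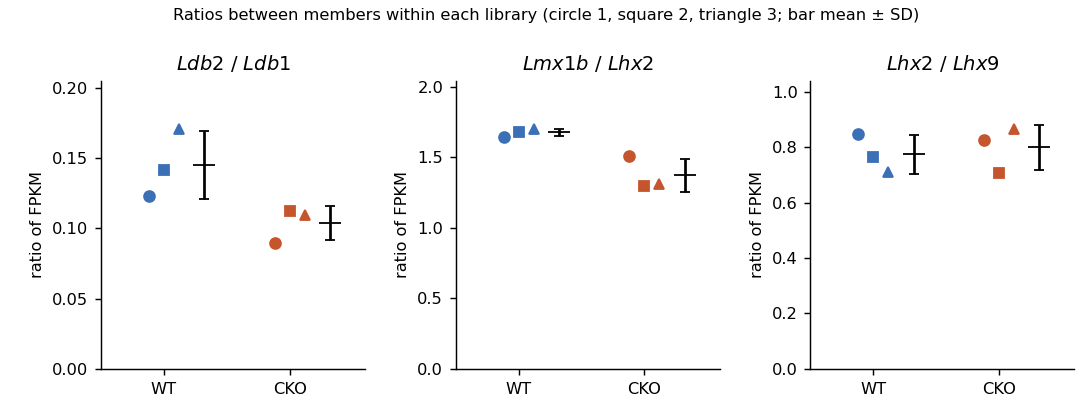
Ratio of FPKM within each library (vertical axes from 0) for *Ldb2* to *Ldb1*, *Lmx1b* to *Lhx2* and *Lhx2* to *Lhx9*, in WT (blue) and CKO (orange), with mean ± SD (n = 3). The groups separate in the first and second panels, as in *Lmx1b* to *Lhx2* where WT spans 1.65 to 1.70 and CKO 1.29 to 1.51, and overlap in the third.

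In bulk RNA, fewer cells of a type and less RNA per cell cannot be told apart. *Wnt7a*, *En1*, *Lmx1b*, *Lhx2* and *Lhx9* were therefore also set against markers of the layer that expresses them, and *Ldb1* was not. The 15 ectoderm markers, led by *Krt5*, *Krt14* and *Epcam*, summed to 56.2 to 100.4 FPKM over the WT libraries and 63.6 to 109.0 over the CKO libraries, with none at 0. Relative to their mean in the same library, *Wnt7a* differed by -0.25 (exact *p* = 0.4) and *En1* by 0.10 (exact *p* = 0.9) on the log2 scale. Relative to their median, *Wnt7a* differed by -0.11 and *En1* by 0.24 (exact *p* = 0.5 each). *En1*, whose FPKM did not overlap between groups, overlapped relative to either. Relative to the marker mean its WT libraries ranged from -2.19 to -1.59, so the markers added spread of their own. Whether the amount of ectoderm had a part in the level of *En1* was not tested. The 10 mesenchyme markers, led by *Twist1*, *Prrx1* and *Vim*, summed to 322.6 to 382.9 FPKM in WT. In CKO they summed to 320.2 to 343.6 FPKM. Relative to them, *Lmx1b* differed by -0.35 (exact *p* = 0.4), *Lhx2* by -0.06 (exact *p* = 0.8) and *Lhx9* by -0.11 (exact *p* = 0.6), with overlapping groups each time. *Lmx1b* relative to these markers was nevertheless lower in CKO within each number, at 0.82 and 0.52, 0.14 and -0.37, and 0.24 and -0.001 in the WT and CKO libraries numbered 1, 2 and 3.

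*Ldb2* is also expressed in endothelial cells, whose markers were lower in CKO as well. The 12 markers, led by *Cdh5*, *Pecam1* and *Erg*, summed to 35.2 to 43.9 FPKM in WT. Their sum in CKO was 22.8 to 34.7 FPKM, without overlap, and no marker was at 0. By number, *Ldb2* differed by -0.32, -0.54 and -0.54 on the log2 scale. The marker sums were 43.9 and 22.8 FPKM in the WT and CKO libraries numbered 1. They were 35.2 and 34.7 in those numbered 2 and 36.5 and 33.0 in those numbered 3. All 11 that could be tested were lower in CKO (median log2 difference -0.32), of which *Tie1* (-0.54) and *Egfl7* (-0.42) had an unadjusted *p* value under 0.05 in limma without the block, and none had an adjusted one under 0.05 with or without it. Relative to the mean of these markers, the log2 difference of *Ldb2* was -0.13 with overlapping groups (exact *p* = 0.7), whereas relative to the mesenchyme markers it was -0.39 without overlap (exact *p* = 0.1), both computed after the values were seen. The part of endothelial cells in the lower level of *Ldb2* was not tested further.

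Of the LIM homeodomain and LIM-only family, 10 of 16 genes were expressed enough to be tested, of which 7 were lower and 3 higher in CKO. The lower ones include *Lmx1b*, *Lhx2* and *Lhx9*, already described above. The median log2 difference was -0.12, from -0.26 without CKO replicate 1 to 0.02 without WT replicate 1. *Lmo1*, a LIM-only protein that binds LDB adaptors without contacting DNA itself, had 9.33, 6.68 and 5.79 FPKM in WT and 4.98, 4.37 and 4.92 in CKO. Its groups did not overlap, its log2 difference was -0.57 (SE 0.18, adjusted *p* = 0.461 in limma), and with the block limma gave an adjusted *p* value of 0.0414. *Lmx1a*, the paralogue of *Lmx1b*, had 4.92, 10.4 and 11.7 FPKM in WT and 6.12, 20.6 and 14.8 in CKO, and its log2 difference was 0.54 (adjusted *p* = 0.837 in limma, or 0.0534 with the block). Each CKO library was above the WT library of its number, the opposite direction to *Lmx1b*, and neither paralogue passed the threshold in these fits. *Lmo4* differed by -0.35 and *Lmo2* by 0.26 on the log2 scale, with adjusted *p* values of 0.606 and 0.694. Of the other LIM homeodomain genes, *Lhx1*, *Lhx3*, *Lhx4*, *Lhx5*, *Lhx6* and *Lhx8* were too low to test, and *Lhx3* was listed at 0 in all 6 libraries.

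The other partners of the LDB complex, the single-stranded DNA-binding proteins encoded by *Ssbp2*, *Ssbp3* and *Ssbp4* and the ubiquitin ligase encoded by *Rlim*, had log2 differences of -0.01, 0.05, -0.18 and 0.24, and none passed an unadjusted *p* value of 0.05 with or without the block. *Ldb2* was thus the member of this list of 6 that did.

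Upstream of *Lmx1b*, the list for secretion and reception of WNT7A held 10 genes, with *Wnt7b* and *Rspo2* counted among them. All were tested, 5 higher and 5 lower, with a median log2 difference of -0.0027. *Reck*, which encodes a membrane protein that takes part in WNT7A and WNT7B reception, had 10.9, 9.86 and 9.89 FPKM in WT and 9.77, 6.46 and 6.93 in CKO. The groups did not overlap, with the first CKO library just below WT, and the log2 difference of *Reck* in limma was -0.42 (SE 0.17, unadjusted *p* = 0.0387, adjusted *p* = 0.564, or 0.0767 with the block). *Wnt7b*, the paralogue of *Wnt7a*, had 2.08 FPKM in WT and 2.05 in CKO on average. The 8 genes of BMP input to the ventral ectoderm, which maintains *En1*, had a median log2 difference of 0.04, and none had an unadjusted *p* value under 0.05 with or without the block. Among them the ligand genes *Bmp4* and *Bmp2* differed by 0.23 and 0.22 and the receptor gene *Bmpr1a* by 0.09.

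Of 9 genes linked to LMX1B in limb or kidney, 6 were tested and 4 of these were lower in CKO, with a median log2 difference of -0.28 and none with an unadjusted *p* value under 0.05 in limma without the block. With 1 library left out this median ranged from -1.01 (without WT replicate 1) to 0.01 (without WT replicate 3), while leaving out WT replicate 2 gave -0.046 and leaving out CKO replicate 1 gave -0.091. The matrix and joint genes *Dcn* (-0.79), *Kera* (-0.57) and *Gdf5* (-0.47) had negative log2 differences and the matrix gene *Lum* a positive one (0.13). With the block *Dcn*, *Kera* and *Gdf5* had unadjusted *p* values of 0.0157, 0.00662 and 0.0462, and none an adjusted one under 0.05. Levels of all 4 in both replicate 1 libraries were below those of the other libraries, as with *Dcn* at 0.247 and 0.246 FPKM against 1.57 and 1.75 in the other WT libraries and 0.832 and 0.539 in the other CKO libraries. The ephrin receptor gene *Epha4* differed by 0.05. All 5 tested outgrowth signals linked to LHX2 and LHX9 had positive log2 differences, from 0.03 for *Shh* and 0.04 for *Fgf10* through 0.13 for *Grem1* and 0.16 for *Fgf8* to 0.35 for *Jag1*, and none had an unadjusted *p* value under 0.05 in limma without the block. With the block *Jag1* had an unadjusted *p* value of 0.0127 and an adjusted one of 0.146.

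**Figure D4:**
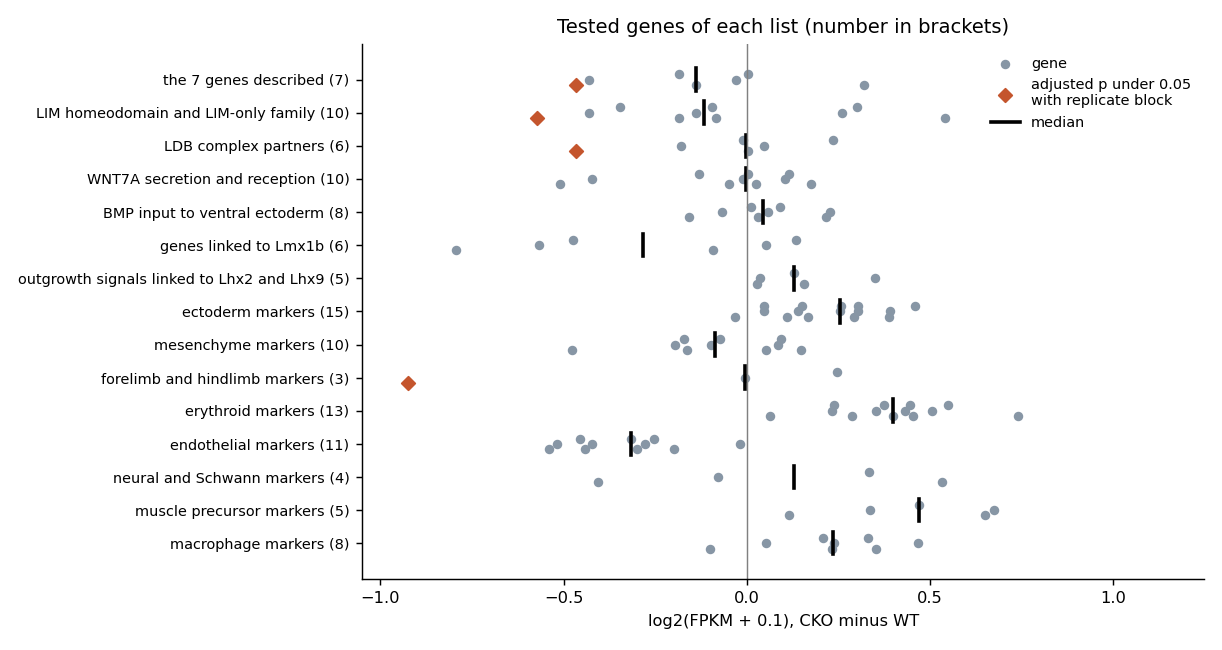
Log2 difference between CKO and WT (horizontal axis) of each tested gene (points) in the lists named on the left, with the number tested in brackets and the median as a black bar. The endothelial markers lie to the left (median -0.32), the erythroid and muscle precursor markers to the right (0.40 and 0.47), and diamonds mark *Ldb2* (on 2 lists), *Lmo1* and *Tbx5*, which had an adjusted *p* value under 0.05 with the replicate block.

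The makeup of the libraries differed in ways that accompany these values. *Tbx5*, the forelimb gene, had 20.3, 19.1 and 19.2 FPKM in WT and 15.3, 7.30 and 9.58 in CKO, a log2 difference of -0.93 (adjusted *p* = 0.358 in limma, 0.00734 with the block), while *Tbx4* and *Pitx1* of the hindlimb differed by -0.0033 and 0.25. CKO replicate 2, with the lowest *Tbx5*, also had the lowest *Lmx1b*, *Lhx2*, *Lhx9*, *Ldb1* and *Ldb2*. Whether the share of forelimb tissue had a part in these levels was not tested. Of the mesenchyme markers, *Twist2* differed by -0.48 with an unadjusted *p* value of 0.0351, and the 10 had a median of -0.09. The 13 erythroid markers, led by *Hbb-y*, *Hbb-bh1* and *Hba-x*, were all higher in CKO (median 0.40), with sums of 38032 to 64273 FPKM in WT and 31048 to 143414 in CKO that overlapped. The 5 muscle precursor markers tested of 6, led by *Myog*, *Myod1* and *Lbx1*, were also all higher (median 0.47), as were 7 of the 8 macrophage markers, led by *C1qb*, *Csf1r* and *C1qa* (median 0.24), and 14 of the 15 ectoderm markers (median 0.25), and none of these genes had an unadjusted *p* value under 0.05 in limma without the block. With the block *Hba-a2*, *Hbb-bt*, *Slc4a1*, *Myf5*, *Myod1*, *Myog*, *C1qb*, *Krt5* and *Perp* did, and none had an adjusted one under 0.05. These medians depended on single libraries. The erythroid median was 0.046 without CKO replicate 2 and 0.825 without CKO replicate 1. Without WT replicate 1 the muscle precursor median was 0.15, the ectoderm median 0.049 and the macrophage median 0.070, and without CKO replicate 2 the latter 2 were 0.066 and 0.054. Of 11 neural and Schwann markers, 4 were tested. *Sox10* of Schwann cells differed by 0.33, and *Tubb3* of neurons differed by -0.41 with an unadjusted *p* value under 0.05, whereas *Elavl3* and *Neurod1* were below 0.1 FPKM in every library. The part of these cell types in the levels of the genes described here was not tested.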

How the data were processed

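RNA-seq libraries of 3 WT and 3 CKO limb bud samples were analysed, and the other 28 of the 34 samples were not analysed here. The authors deposited FPKM values per gene, made from a stranded mRNA kit. The submitters' processing notes name cutadapt 2.5, HISAT2 2.1.0, featureCounts 1.6.3 and mm10, without tying a tool to an assay, and whether counting used strand is not given in the sources used here. Of the identifiers, 99.5% were found in GENCODE M21 on GRCm38, which gave the gene models. For 92.6% of the genes, multiplying the FPKM by exon length and library size gave integer reads (within 0.1 reads) in every library. The library size was itself estimated as the value that made low levels whole, and genes at 0 count as whole. The share is therefore not an independent check. CKO replicates 2 and 3 had more reads on listed genes than the library size they were divided by, so the values carry a scaling between libraries.

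The genes whose mean FPKM reached 0.5 were compared as log2(FPKM + 0.1) with limma 3.58.1 (lmFit, eBayes with trend) in R 4.3.3, adjusted over all genes tested by Benjamini-Hochberg. This scale understates the change of low genes. Single values were compared by the exact two-sided permutation test in Python 3.11.15 with scipy 1.17.1, which cannot fall below 0.1 here. The fit was tested on simulated data. Libraries with the same replicate number deviated from their group means together, with correlations over genes of 0.64, 0.44 and 0.27, so the numbers were taken to pair them. This rests mainly on replicate 1. Within numbers 2 and 3 the correlations were 0.44 and 0.27. Across them they were 0.49 (WT 2 with CKO 3) and 0.31 (WT 3 with CKO 2), so these numbers were not set apart as pairs. The labels do not say what a number stands for, and *p* values measure the spread between these samples.

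The alternatives were other pseudocounts, filters and scalings, a gene-wise linear model, eBayes without trend, blocking on the replicate number, voom on recovered reads, and leaving out libraries. The genes and lists were chosen with earlier results of these data known. Lists covered the LIM homeodomain and LIM-only family, LDB partners, WNT7A, BMP, LMX1B and outgrowth genes, and markers of ectoderm, mesenchyme, limb type, blood, endothelium, nerve, muscle and macrophages. Named were the 7 genes, list genes past the adjusted threshold with or without the block, up to 3 per list with the largest difference at an unadjusted *p* value under 0.05, the 3 highest markers per list, and the 2 genes most like each of the 7, except a few genes that are not reported here. Other genes were named after their values were seen. Promoter sequences came from RefSeq on GRCm38.p6, where 6 of the 7 genes matched, and the guide from the supplementary tables.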

Additional observations from a re-analysis of the deposited data

How the results depend on the processing

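Of the 7 genes, *Lmx1b*, *En1*, *Lhx9* and *Ldb2* kept their direction under all 19 alternatives. *Lmx1b* passed the adjusted threshold with voom and the replicate block (-0.43) and in replicates 2 and 3 alone (-0.50), and *Ldb2* with the replicate block (-0.47), with voom and the block (-0.47) and in replicates 2 and 3 alone (-0.54), so that 1, 2 and 2 of the 7 genes were called with the block, with voom and the block, and in replicates 2 and 3. The block changed no other call among them. *Wnt7a*, near 0, turned to 0.035 with quantile normalization and ranged from -0.151 to 0.088 with 1 library left out. *Lhx2* ranged from -0.301 to 0.032 with 1 library left out. *Ldb1* turned to -0.056 with quantile normalization, -0.10 with scaling without globin genes and -0.060 in replicates 2 and 3, and ranged from -0.13 to 0.13 with 1 library left out. Leaving out 1 library gave -0.66 to -0.22 for *Lmx1b*, 0.18 to 0.42 for *En1*, -0.32 to -0.08 for *Lhx9* and -0.51 to -0.40 for *Ldb2*, whose adjusted *p* value in limma then ranged from 0.135 to 0.999. Scaling without globin genes moved the median of all genes from 0.0048 to -0.10. Over all genes, the adjusted calls, 7 higher and 1 lower, became 139 and 207 with the block, 227 and 424 with voom and the block, 867 and 984 in replicates 2 and 3, 13 and 1 with quantile normalization, 4 and 0 with scaling without globin genes, 10 and 13 without CKO replicate 1, 3 and 0 without WT replicate 2, and 1 and 0 without any single one of WT replicate 3 and CKO replicates 2 and 3. The ordinary linear model called 0 (1108 genes were under 0.05 without adjustment). Unadjusted calls numbered 1022, against 2263 with the block, 2535 with voom and the block, 3569 in replicates 2 and 3, 2416 without CKO replicate 1, and 575, 513 and 576 without WT replicate 2, WT replicate 3 and CKO replicate 3. The genes past the study's fold threshold, 52 higher and 30 lower, were 12 and 3 with a pseudocount of 1, 30 and 8 with 0.5, 28 and 19 at a mean FPKM of at least 1, 103 and 59 with no filter, 72 and 54 with voom and the block, 82 and 102 in replicates 2 and 3, 59 and 81 without WT replicate 1, and 113 and 55 without CKO replicate 1. With the median of a marker list in place of its mean, *Wnt7a* relative to ectoderm was -0.11 in place of -0.25 and *En1* 0.24 in place of 0.10. With 1 library left out, the list medians ranged from 0.046 to 0.825 for erythroid, 0.049 to 0.341 for ectoderm, 0.054 to 0.434 for macrophage, 0.150 to 0.620 for muscle precursor, -0.371 to 0.418 for neural and Schwann, -0.480 to -0.238 for endothelial and -0.155 to -0.031 for mesenchyme markers, -0.194 to 0.092 for WNT7A, -0.119 to 0.024 for LDB, 0.0073 to 0.064 for BMP and 0.035 to 0.258 for outgrowth genes. The cause of these changes was not tested. *Wnt7a* dropped out at a mean FPKM of at least 1, which left it 18 alternatives.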
